A study of Mus musculus with 96 samples.

Results

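The genes described are 9 genes of fatty acid and triglyceride synthesis, Fasn, Acaca, Acacb, Acly, Scd1, Elovl6, Me1, Thrsp and Pnpla3, and Srebf1, a transcription factor gene of the same pathway. They were chosen by name: an entry of the gene count table belongs when its gene name is one of these 10. Each name matched 1 entry, so that there were 10 members among 56748 genes, and all 10 passed the filter on low counts in every comparison.

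In the study, RNA was measured in liver, skeletal muscle and cerebral cortex of C57BL/6 mice that ate ad libitum (AL) or were kept on intermittent fasting (IF). The labels list 16 male mice, here mice 1-16, and 16 female mice, here mice 25-40, each with 8 AL and 8 IF animals and 1 library per tissue, which makes 96 libraries. The male IF mice went without food for 16 h of every day, starting at 6 weeks of age and lasting 4 months, and were killed in the morning at the end of a fast, while the AL mice had food throughout. For mice 25-40 the fasting hours, the duration and the age are not given in the sources used, nor whether they were kept together with mice 1-16, so that sex cannot be told apart from anything else that may differ between the mouse sets. The male mice were perfused with saline, and whether mice 25-40 were is not given either. AL and IF mice are different animals, and the libraries of 1 mouse number are tissues of the same animal. By the clock hours in the paper, the daily fast of the male IF mice spanned the dark phase, so that they could eat only in the light. Whether an IF value stands for the months of the schedule, the last hours without food or this time of feeding cannot be told apart in this design.

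Fatty acids are built in the cytosol from acetyl-CoA, which Acly makes from citrate. Acaca makes malonyl-CoA from it, Fasn joins these units into palmitate with NADPH that Me1 helps to supply, and Elovl6 and Scd1 then lengthen and desaturate the chain. In liver the pathway is known to be high after a carbohydrate meal and low in fasting, with SREBP-1c, a product of Srebf1, among the factors that insulin brings to the promoters of these genes; adipocytes also express the pathway strongly.

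The libraries held 26097314 to 49838004 counted reads with a median of 36164022, so that 1 count in the shallowest library was 0.0383 CPM (counts scaled to the library total). Levels are given in CPM of the raw counts, and a level is compared between genes only as CPM per kilobase of gene length. Each tissue held its defining marker: Alb, the gene of serum albumin, lay between 23150 and 69840 CPM in liver, Acta1 of skeletal muscle between 37930 and 54310 CPM in muscle, and the neuronal gene Snap25 between 1520 and 3199 CPM in cortex. The cortex library labelled as AL mouse 1, a male, went against its label, with 213 CPM of Xist, the RNA of the inactive X chromosome, and no count of the Y-linked genes Ddx3y, Uty, Kdm5d and Eif2s3y. The other 47 libraries labelled male held at most 0.612 CPM of Xist, and the 48 labelled female held 36.8 to 1627 CPM. In its counts this library was closer to the cortex library of IF mouse 40 than any other pair of cortex libraries were to each other (mean chi-square per gene 4.75, against 9.05 for the next pair and a median of 45.8). It is left out below, which leaves 7 AL cortex libraries of mice 1-16, and cortex results are also given with it.

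In AL mice the members made up a larger part of the RNA in liver than in the other tissues. Their summed level in liver of AL mice 1-16 was 2804 CPM at the lowest, 4703 at the median and 7692 at the highest. In muscle of the same mice the sum was 628, 720 and 928 CPM, and in cortex it was 666, 706 and 812 CPM.

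The order of the members differed between the tissues. Per kilobase, the median level in AL liver of mice 1-16 was highest for the desaturase Scd1, at 564 CPM per kb, followed by Thrsp at 107, Srebf1 at 79.2 and Fasn at 51.4 CPM per kb. The ranges of Thrsp, Srebf1 and Fasn overlapped, at 53.1 to 231, 51.5 to 128 and 33.3 to 137 CPM per kb. Me1 at 22.4, Elovl6 at 18.9 and Acly at 16.5 CPM per kb lay close together, and the ranges of these 3 also overlapped on the CPM per kb scale. The acetyl-CoA carboxylases followed with overlapping ranges, Acacb at 5.05 and Acaca at 3.56 CPM per kb, and Pnpla3, which codes for a lipid droplet protein, was lowest at 0.795 CPM per kb. In AL muscle Me1 led with 64.0 CPM per kb, then Acacb with 24.8, Srebf1 with 17.2 and Scd1 with 14.1 CPM per kb, while Elovl6 was lowest at 0.145 CPM per kb. The range of Scd1 there, 6.44 to 42.1 CPM per kb, spanned those of Acacb and Srebf1. In AL cortex Scd1 at 25.2, Fasn at 21.7 and Acly at 19.6 CPM per kb were highest, with overlapping ranges, and Acacb was lowest at 0.385 CPM per kb.

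The carboxylases differed in opposite directions between liver and muscle. Acaca, the cytosolic form that feeds synthesis, was higher in liver than in muscle in 8 of 8 AL mice 1-16 by a mean of 2.69 on the log2 scale (SD 0.39, exact sign-flip p = 0.00781, adjusted 0.0156). Acacb, the form at the mitochondrial surface whose malonyl-CoA restrains fat oxidation, was lower in liver than in muscle in all 8, with a mean log2 difference of -2.02 (SD 0.74, exact p = 0.00781, adjusted 0.0156), and higher in muscle than in cortex in 7 of 7 by 5.94 (SD 0.15, exact p = 0.0156, adjusted 0.0199). Against cortex both means were higher in liver, for Acaca by 0.27, which did not pass (exact p = 0.0469, adjusted 0.0551), though it did in mice 25-40, at 0.35 (7 of 8 mice, exact p = 0.0156, adjusted 0.0199), and for Acacb by 3.97 (exact p = 0.0156, adjusted 0.0199). Me1 was, like Acacb, lower in liver than in muscle in all 8 mice, with a mean log2 difference of -1.50 (SD 0.38, exact p = 0.00781, adjusted 0.0156). Pnpla3 was lower there than in muscle in all 8 as well, at -1.73 (SD 1.24, exact p = 0.00781, adjusted 0.0156). In liver it was also lower than in cortex, at -0.97 (exact p = 0.03125, adjusted 0.0383). For Pnpla3 in mice 25-40 neither passed, at -0.32 and 0.41 (exact p = 0.3438 and 0.3047, adjusted 0.3618 and 0.3385). Over the members, pairs of tissues and mouse sets, 49 of 60 such two-sided tests passed an adjusted p of 0.05, and the smallest p these permutations can give is 0.00781 with 8 mice and 0.0156 with 7. The same tests were not run over all genes, so that this count cannot be set against a share of them. Among the pairs that did not pass were Acly between liver and cortex, with mean log2 differences of -0.27 in mice 1-16 (exact p = 0.328, adjusted 0.352) and 0.03 in mice 25-40 (exact p = 0.922, adjusted 0.922), and Thrsp between muscle and cortex, with -0.11 (exact p = 0.625, adjusted 0.647) and -0.52 (exact p = 0.289, adjusted 0.327).

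In liver of mice 1-16 the question was which of the members differed between AL and IF. Of the 10 members, 7 fell under IF and none rose (edgeR, adjusted p under 0.05 over all genes, which is what called means below), in a comparison in which 44.6% of 16204 genes were called, 23.5% higher and 21.1% lower. All 10 log2 fold changes of IF over AL were negative, with a median of -0.98 against 0.06 over all genes. DESeq2 also called 7, with 25.2% of all genes, and 7 had an unadjusted p under 0.05, with 51.4% of all genes. In bulk tissue, fewer cells of a type and less RNA per cell cannot be told apart, here or in any result below. The summed level of the members under IF was 1890 CPM at the lowest, 2564 at the median and 3251 at the highest, so that it overlapped the AL range at its low end.

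Srebf1, whose cleaved protein activates lipogenic genes, was at 290 CPM at the lowest, 446 at the median and 719 at the highest under AL, and at 110, 258 and 362 CPM under IF. AL mice 2 and 4 were highest and IF mouse 10 was lowest, and 6 of 8 IF livers lay below every AL liver. The fitted log2 fold change was -1.05 ± 0.25 (SE, n = 8 and 8, adjusted p = 0.00238). Reads were counted for the whole gene, so that the SREBP-1a and SREBP-1c forms were not separated.

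Acly, which makes the acetyl-CoA, was at 50.7, 87.0 and 153 CPM under AL and at 22.8, 29.3 and 34.7 CPM under IF. The groups did not overlap, with AL mouse 4 highest, and the median was 2.97 times as high under AL. Its log2 fold change was -1.71 ± 0.18 (adjusted p = 1.59e-07). Acaca was at 49.6, 60.8 and 80.4 CPM under AL and at 51.2, 58.6 and 76.2 CPM under IF. These ranges lay almost on each other, and the log2 fold change was -0.13 ± 0.11 (adjusted p = 0.35). Acacb was at 29.3, 48.7 and 138 CPM under AL and at 38.03, 55.9 and 76.0 CPM under IF. AL mice 8 and 5 stood highest and the IF range lay within the AL range, at a log2 fold change of -0.28 ± 0.29 (adjusted p = 0.453).

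Fasn, the synthase that builds palmitate, was at 364, 563 and 1499 CPM under AL and at 132, 161 and 200 CPM under IF. The groups did not overlap, AL mice 2 and 4 were highest, and the 8 IF livers lay close together. The median was 3.50 times as high under AL and the log2 fold change was -2.18 ± 0.25 (adjusted p = 7.78e-07). Thrsp, the lipogenic protein Spot 14, was at 116, 235 and 505 CPM under AL and at 71.5, 103 and 245 CPM under IF. Here the groups overlapped, with IF mice 10, 11, 13 and 14 inside the AL range, and 7 of 8 IF livers lay below the AL median. The log2 fold change of Thrsp was -1.23 ± 0.35 (adjusted p = 0.00986).

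Scd1, which puts the double bond into the finished chain, was at 1608, 2760 and 5301 CPM under AL and at 1040, 1743 and 2336 CPM under IF. All 8 IF livers lay below the AL median and 3 lay below every AL liver, at a log2 fold change of -0.91 ± 0.25 (adjusted p = 0.00564). Elovl6, which lengthens palmitate, was at 89.1, 121 and 148 CPM under AL and at 66.5, 84.7 and 137 CPM under IF. IF mice 11, 10 and 9 were within the AL range and the other 5 were below it, at a log2 fold change of -0.44 ± 0.16 (adjusted p = 0.0265). Me1, the malic enzyme that yields NADPH, was at 65.9, 86.3 and 117 CPM under AL and at 72.3, 89.0 and 107 CPM under IF, with the IF livers inside the AL range and a log2 fold change of -0.11 ± 0.14 (adjusted p = 0.541).

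Pnpla3 was the member with the fewest counts in liver, at 0.166, 1.23 and 1.91 CPM under AL and at 0, 0.157 and 0.413 CPM under IF. AL mice 1 and 3 lay among the IF livers, and the other 6 AL livers lay above all of them. The livers of IF mice 9, 10 and 13 had no count, which allows up to 0.0775, 0.0757 and 0.0735 CPM, counting error only. The log2 fold change was -2.79 ± 0.73 (adjusted p = 0.00336), and without AL mouse 2 and IF mouse 10 Pnpla3 did not pass the filter on low counts and 6 members were called, where 43.2% of all genes were.

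**Figure D1:**
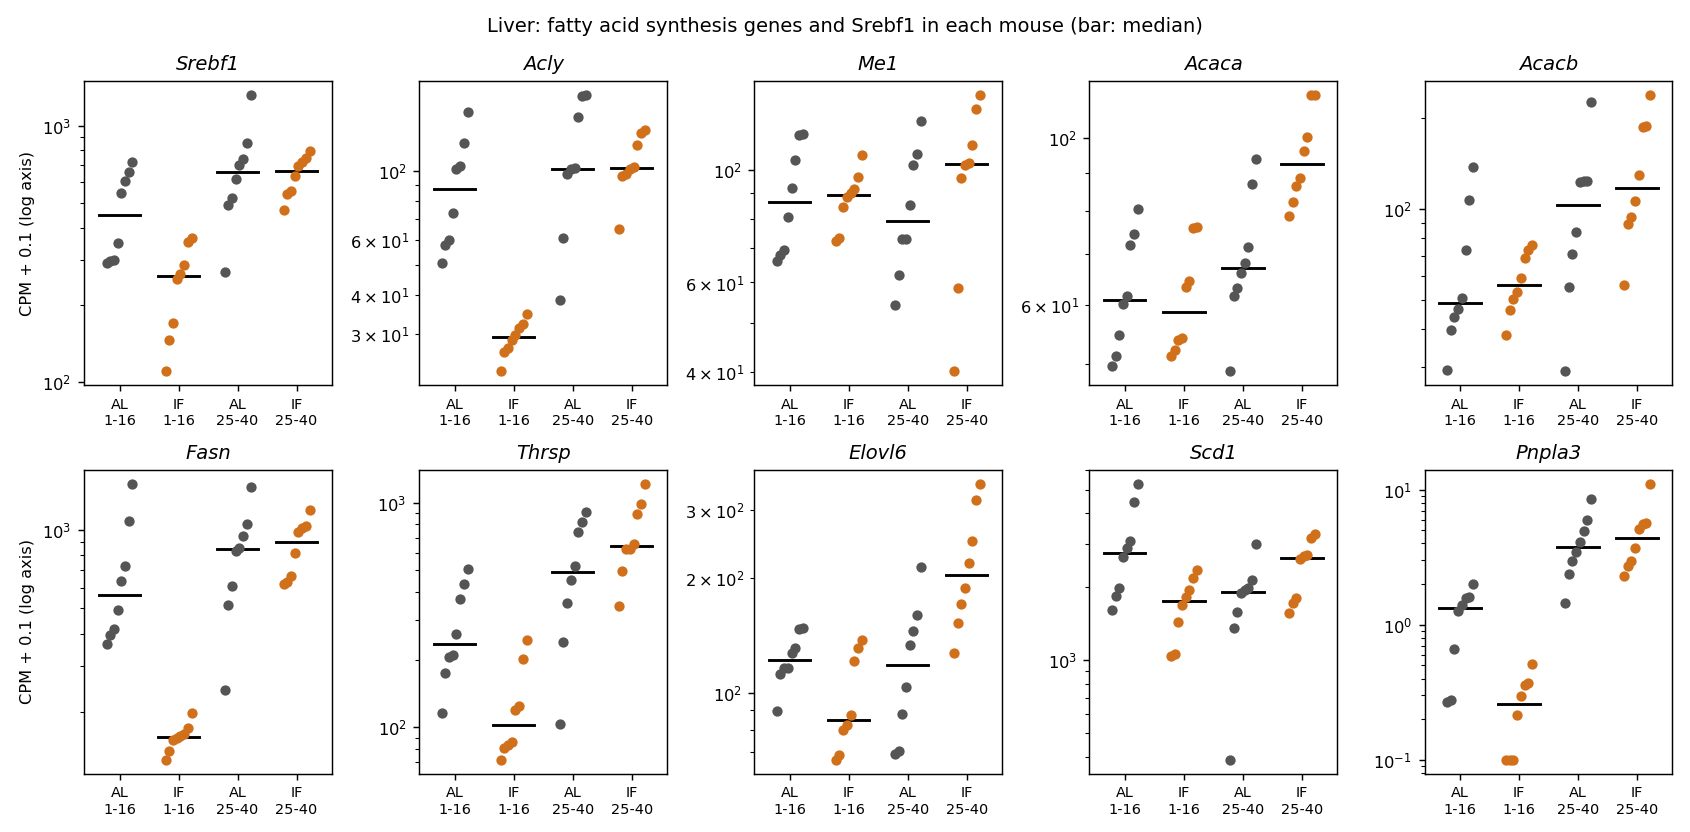
Level of the 10 members in liver, in CPM plus 0.1 on a log axis, with 1 point per mouse for AL and IF in mice 1-16 and in mice 25-40 and a bar at each median. In mice 1-16 the IF points of Fasn and Acly lie below every AL point, while in mice 25-40 the diets overlap for each of the members.

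In liver of mice 25-40 none of the members was called by edgeR or by DESeq2, and 2, Elovl6 and Acaca, had an unadjusted p under 0.05. Over all genes, 0% of 15938 were called, 919 (5.77%) had an unadjusted p under 0.05 and DESeq2 called 4. The members' median log2 fold change was 0.34 against -0.01 over all genes, with 8 of 10 positive. Fasn was at 243, 840 and 1454 CPM under AL and at 619, 899 and 1187 CPM under IF. The IF livers lay inside the AL range, which reached from mouse 28 to mouse 31, and the log2 fold change was 0.14 ± 0.26 (adjusted p = 0.953). Srebf1 was at 268, 658 and 1318 CPM under AL and at 468, 664 and 795 CPM under IF, with the same animals at the ends and a log2 fold change of -0.05 ± 0.22 (adjusted p = 0.979). Elovl6 was at 69.0, 118 and 213 CPM under AL and at 127, 203 and 352 CPM under IF. All 8 IF livers were above the AL median and 4 were above every AL liver, at a log2 fold change of 0.90 ± 0.25 (unadjusted p = 0.00172 from edgeR, adjusted p = 0.785). Acaca was at 48.8, 67.0 and 93.8 CPM under AL and at 78.6, 92.3 and 114 CPM under IF, again with 4 IF livers above every AL liver and a log2 fold change of 0.49 ± 0.13 (unadjusted p = 0.00092 from edgeR, adjusted p = 0.785).

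The liver of AL mouse 28 was the lowest of its group for 9 of 10 members, all but Me1. It held 388 CPM of Scd1 where the next liver held 1356 CPM, and 104 CPM of Thrsp where the next held 241 CPM. The same library held the largest sum of 5 macrophage markers, 698 CPM against a group median of 265 CPM, with Clec4f of Kupffer cells the most abundant and none of the 5 at 0 in all libraries of the group. The part of these markers in the low levels was not tested.

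The response of liver itself differed between the mouse sets. Of the 10 members, 8 had a called difference in log2 fold change (mice 25-40 minus mice 1-16), all positive, against 23.7% of 17658 genes. Their median difference was 1.40 against -0.04 over all genes. The difference was 2.36 ± 0.38 for Fasn (adjusted p = 1.88e-05), 1.71 ± 0.33 for Acly (adjusted p = 0.000258) and 3.10 ± 0.75 for Pnpla3 (adjusted p = 0.00243). It was smaller for Acaca, at 0.65 ± 0.17 (adjusted p = 0.00409), and for Srebf1, at 1.03 ± 0.34 (adjusted p = 0.0254; without a filter 1.04, adjusted p = 0.0512). It was not called for Me1, at 0.40 ± 0.28 (adjusted p = 0.337), or Acacb, at 0.73 ± 0.48 (adjusted p = 0.297).

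Under AL, the livers of the mouse sets differed in 2 members, against 20.0% of genes. Scd1 was lower in mice 25-40, at 388, 1909 and 3005 CPM, with a log2 difference of -0.88 ± 0.28 from mice 1-16 (adjusted p = 0.0235). Pnpla3 was higher, at 1.34, 3.67 and 8.47 CPM, with a log2 difference of 1.83 ± 0.50 (adjusted p = 0.00744). Both ranges overlapped those of AL mice 1-16. For Fasn the log2 difference between the AL groups was 0.08 ± 0.26 (adjusted p = 0.868).

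Markers of other cells were also counted in liver of mice 1-16, where 44.6% of all genes were called, a share that several of these short lists do not exceed. Of 5 erythrocyte markers, 3 rose under IF, the globin genes Hba-a1, Hbb-bs and Hbb-bt. The summed level of all 5 was 362, 569 and 956 CPM under AL and 667, 2070 and 6879 CPM under IF, with Hba-a1 the most abundant, IF mouse 9 the highest and none of the 5 at 0 in all libraries. Hbb-bs alone was at 53.5, 119 and 165 CPM under AL and at 269, 907 and 2980 CPM under IF, without overlap, at a log2 fold change of 3.17 ± 0.52 (adjusted p = 0.000167). With the mean log2 CPM of these markers as a covariate, 24.7% of all genes and 2 members were called, Fasn at -2.27 (adjusted p = 0.000213) and Acly at -1.58 (adjusted p = 0.00031). In that fit Srebf1 was at -0.76 (adjusted p = 0.152), Scd1 at -0.95 (adjusted p = 0.0591), Thrsp at -1.21 (adjusted p = 0.125), Elovl6 at -0.40 (adjusted p = 0.227) and Pnpla3 at -2.01 (adjusted p = 0.2). Over the other lists, 2 of 5 endothelial markers rose (Kdr and Tek, summed medians 51.8 CPM under AL and 87.6 CPM under IF), 2 of 5 macrophage markers rose (C1qa and Clec4f, 153 and 211 CPM), and of 8 hepatocyte markers Cyp2e1 rose and Apoa1 and Fgb fell (60430 and 64040 CPM). Of the adipocyte list 6 of 11 were tested and 3 fell, Car3 at -1.90, Cfd at -4.70 and Adrb3 at -1.53, with summed medians of 4038 CPM under AL and 1164 CPM under IF, nearly all of it Car3, while Adipoq was at 0 in 7 AL and 6 IF livers. Of the astrocyte list 3 of 5 tested rose and 1 fell (855 and 1221 CPM, mostly Aldh1l1), of the oligodendrocyte list 1 of 4 rose and 2 fell (19.4 and 14.4 CPM), and of the neuronal list 1 of 2 rose. The part of any of these cells in the members' fold changes was not tested.

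In muscle of mice 1-16, 8 of the 10 members rose under IF and none fell, where 23.0% of 15025 genes were called, 11.5% higher and 11.6% lower. Of the 7 that fell in liver, 5 were among them, Scd1, Fasn, Thrsp, Acly and Elovl6, while Srebf1 and Pnpla3 were not called. Over the 10 members, the median log2 fold change was 1.64 against 0.01 over all genes. DESeq2 also called 8, with 11.5% of all genes, and 9 had an unadjusted p under 0.05, with 35.3% of all genes. The summed level under IF was 1075 CPM at the lowest, 1702 at the median and 6036 at the highest, above every AL muscle.

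Srebf1 was the member with a negative fold change, at 70.3, 97.0 and 115 CPM under AL and at 58.4, 77.5 and 107 CPM under IF. The groups overlapped, with IF mice 9 and 12 among the higher AL muscles, and the log2 fold change was -0.27 ± 0.11 (adjusted p = 0.0983). Acly was at 6.54, 9.05 and 10.7 CPM under AL and at 8.85, 13.1 and 50.3 CPM under IF. IF mice 12, 9 and 10 stood far above the rest, at a log2 fold change of 1.28 ± 0.38 (adjusted p = 0.0248). Without AL mouse 2 and IF mouse 10, Acly was at 1.20 (adjusted p = 0.0575) and 7 members were called, where 21.6% of all genes were. Acaca was at 7.47, 8.82 and 16.8 CPM under AL and at 14.96, 32.2 and 175 CPM under IF. The same 3 IF mice were highest and AL mouse 2 overlapped the IF range, at a log2 fold change of 2.40 ± 0.50 (adjusted p = 0.0031). Acacb was at 211, 238 and 254 CPM under AL and at 285, 300 and 402 CPM under IF, so that the groups did not overlap. Its log2 fold change, 0.32 ± 0.06 (adjusted p = 0.00058), was small beside that of Acaca.

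Fasn in muscle was at 12.8, 22.5 and 78.0 CPM under AL and at 44.4, 169 and 1428 CPM under IF. IF mouse 12 was highest, followed by mouse 9 at 774 CPM and mouse 10 at 608 CPM, and 6 of 8 IF muscles lay above every AL muscle. The log2 fold change was 3.74 ± 0.77 (adjusted p = 0.00312). Scd1 was at 31.5, 69.2 and 206 CPM under AL and at 228, 753 and 3120 CPM under IF. The groups did not overlap, the IF median was 10.9 times the AL median, and the log2 fold change was 3.45 ± 0.59 (adjusted p = 0.000861). Elovl6 was at 0.692, 0.930 and 1.82 CPM under AL and at 1.95, 7.25 and 75.3 CPM under IF, also without overlap, at a log2 fold change of 4.20 ± 0.78 (adjusted p = 0.00146).

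Thrsp was at 14.8, 21.7 and 49.1 CPM under AL and at 34.1, 56.1 and 309 CPM under IF. AL mouse 2 and IF mouse 12 stood apart from their groups, and the log2 fold change was 2.003 ± 0.467 (adjusted p = 0.00677). Me1, the member most abundant per kilobase in AL muscle, was at 205, 246 and 296 CPM under AL and at 288, 320 and 359 CPM under IF. Here the IF mice lay close together, 7 of 8 above every AL muscle, at a log2 fold change of 0.31 ± 0.07 (adjusted p = 0.00199). Pnpla3 was at 1.76, 2.57 and 6.93 CPM under AL and at 2.47, 4.19 and 16.0 CPM under IF, with overlapping groups and a log2 fold change of 0.85 ± 0.42 (adjusted p = 0.167).

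Adipocyte markers moved with the members in these muscles. Of 11 listed markers 10 were tested, and 9 of them rose under IF; Lep did not, at -1.25 ± 0.72 (adjusted p = 0.238), and Ucp1 of brown fat did not pass the filter. The summed level was 952, 1724 and 2349 CPM under AL and 3151, 3789 and 6293 CPM under IF, with Car3, which muscle fibres and liver also express, the most abundant. Adipoq, which marks adipocytes, was at 2.36, 10.1 and 37.3 CPM under AL and at 12.96, 54.1 and 181 CPM under IF, with IF mice 12, 10 and 9 highest, and its log2 fold change was 2.25 ± 0.63 (adjusted p = 0.0192). No marker was at 0 in all AL or all IF muscles, but Ucp1 was at 0 in 7 of 8 AL muscles and reached 51.8 CPM in IF mouse 12. With the mean log2 CPM of the 11 markers as a covariate, 20.1% of all genes and 3 members were called: Scd1 at 1.10 (adjusted p = 0.000133) and Me1 at 0.36 (adjusted p = 0.0154) rose, and Srebf1 at -0.59 (adjusted p = 0.00552) fell. In that fit Fasn was at 0.53 (adjusted p = 0.539), Acaca at 0.31 (adjusted p = 0.645), Elovl6 at 1.33 (adjusted p = 0.223), Thrsp at 0.18 (adjusted p = 0.781), Acacb at 0.21 (adjusted p = 0.0779) and Acly at -0.15 (adjusted p = 0.831). Without IF mice 9, 10 and 12, an alternative chosen after seeing the data, 7 members rose and Srebf1 fell, at -0.47 (adjusted p = 0.00192), where 24.9% of all genes were called. Fasn was then at 1.79 (adjusted p = 0.0194) and Acly, no longer called, at 0.27 (adjusted p = 0.154). The part of adipocytes in the rise of the members was not tested.

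Within each of the 4 muscle groups, the members were set against the mean log2 CPM of the adipocyte markers, 40 relations in all. By Pearson's r 26 passed an adjusted p of 0.05, and by Spearman's rho 17. Other genes were not set against the markers, so that these counts have no share over all genes beside them. For Scd1 in IF mice 1-16, r was 0.970 (exact permutation p = 0.000248, adjusted 0.00372) and rho 0.976 (exact p = 0.000397, adjusted 0.00794), and r was 0.911 without the 2 libraries farthest from the median of the markers. For Fasn in the same mice r was 0.932 (exact p = 0.000918, adjusted 0.00539), rho 0.952 (exact p = 0.00114, adjusted 0.00913) and r 0.945 without the 2 farthest. Me1 passed in none of the 4 groups, with r of 0.155 in IF mice 1-16 (exact p = 0.708, adjusted 0.745), rho 0.0952 (exact p = 0.84, adjusted 0.862) and r -0.107 without the 2 farthest. Acacb was negatively related in IF mice 25-40, with r -0.899 (exact p = 0.00459, adjusted 0.0146), rho -0.857 (exact p = 0.0107, adjusted 0.033) and r -0.681 without the 2 farthest.

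**Figure D2:**
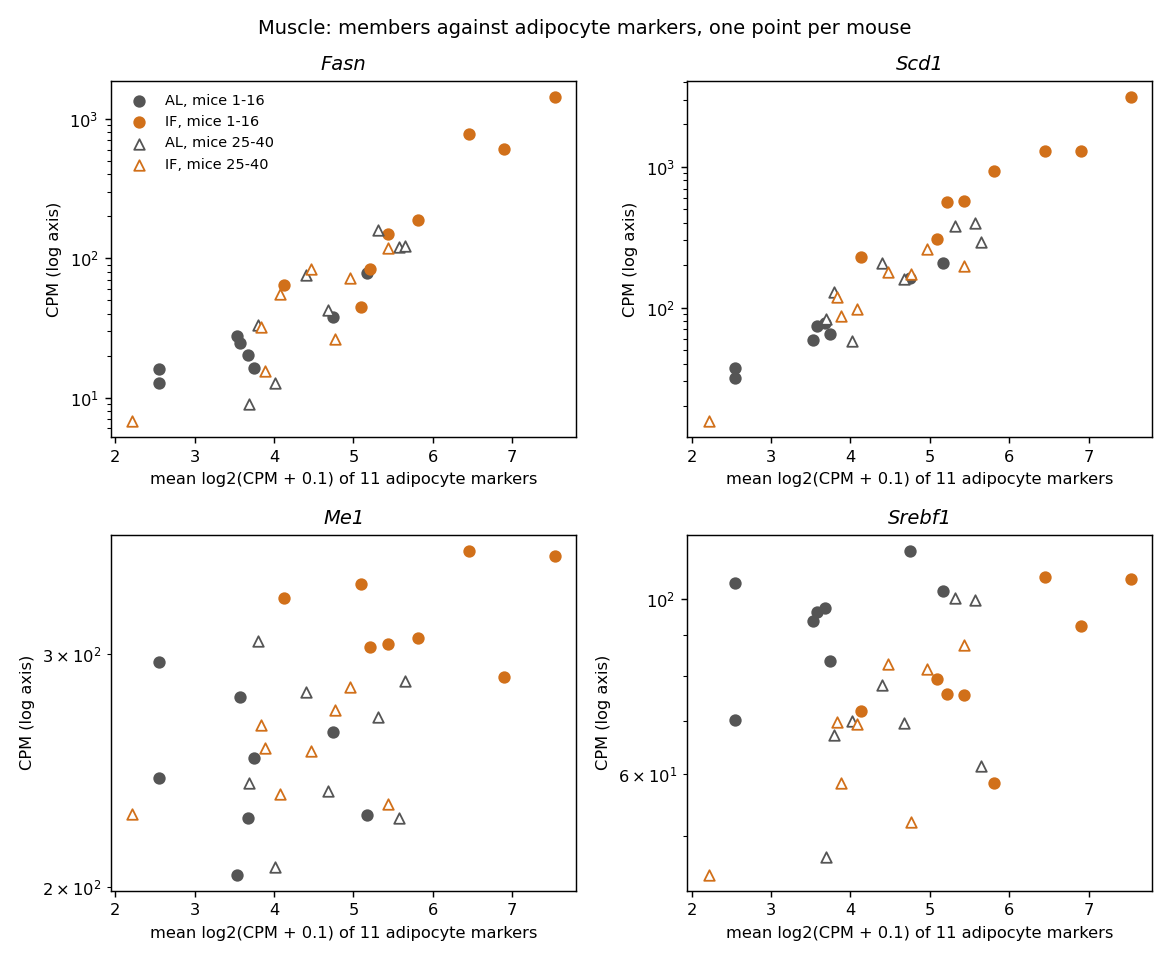
Level of Fasn, Scd1, Me1 and Srebf1 in muscle, in CPM on a log axis, against the mean log2(CPM + 0.1) of the 11 adipocyte markers, with 1 point per mouse for AL and IF of both mouse sets. Fasn and Scd1 climb with the markers within the groups, while Me1 shows no such climb.

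In muscle of mice 25-40 edgeR and DESeq2 called none of the members, where 0.00653% of 15308 genes were called. At an unadjusted p under 0.05 there was 1 member, Acly, close to the share of 10.7% over all genes. The members' median log2 fold change was -0.29 against -0.02 over all genes. Fasn was at 9.06, 59.1 and 159 CPM under AL and at 6.80, 43.8 and 119 CPM under IF. Scd1 was at 58.1, 183 and 402 CPM under AL and at 15.7, 146 and 261 CPM under IF. In both, the groups overlapped over most of their range and IF mouse 36 was the lowest muscle, with log2 fold changes of -0.41 ± 0.65 (adjusted p = 0.851) and -0.52 ± 0.49 (adjusted p = 0.736). Of 10 adipocyte markers tested none was called, and their sum was 2939, 4638 and 5906 CPM under AL and 2862, 5245 and 6372 CPM under IF.

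The muscle response differed between the mouse sets in 6 members, all with a negative difference (mice 25-40 minus mice 1-16), against 14.2% of 16346 genes. The median difference was -2.07 against -0.01 over all genes. It was -4.44 ± 0.90 for Elovl6 (adjusted p = 0.0013), -4.14 ± 0.99 for Fasn (adjusted p = 0.00523) and -3.96 ± 0.76 for Scd1 (adjusted p = 0.000719). Acaca, Thrsp and Acly were also called, between -2.61 and -1.71. Without IF mice 9, 10 and 12 the count was 3, where 15.2% of all genes were called, and with the adipocyte covariate it was 2, where 18.3% were called: Scd1, the only one of the 6, with a negative difference, and Srebf1 with a positive one, at 0.72 (adjusted p = 0.019). Under AL, 2 members differed between the sets, against 38.4% of genes: Srebf1 at -0.50 ± 0.15 (adjusted p = 0.00927) and Acacb at -0.21 ± 0.08 (adjusted p = 0.0378; without a filter -0.20, adjusted p = 0.0762), both lower in mice 25-40.

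In cortex of mice 1-16 2 members rose under IF, Acacb and Pnpla3, where 7.21% of 18462 genes were called, 3.79% higher and 3.43% lower. The members' median log2 fold change was 0.08 against -0.005 over all genes, 6 had an unadjusted p under 0.05, where 23.8% of all genes did, and DESeq2 called 2, where it called 6.17% of all genes. Acacb was at 3.24, 3.71 and 4.68 CPM under AL and at 4.53, 6.35 and 9.52 CPM under IF. IF mouse 10 was within the AL range and the other 7 lay above it, at a log2 fold change of 0.85 ± 0.16 (7 AL and 8 IF libraries, adjusted p = 0.00527). Pnpla3 was at 1.41, 2.26 and 2.35 CPM under AL and at 2.22, 3.08 and 4.31 CPM under IF, again with 7 of 8 IF libraries above every AL library and a log2 fold change of 0.61 ± 0.17 (adjusted p = 0.0308). With the cortex library labelled AL mouse 1 included, Pnpla3 was at 0.46 (adjusted p = 0.163) and 1 member, Acacb, was called, where 1.6% of all genes were. Without AL mouse 2 and IF mouse 10, Pnpla3 was at 0.53 (adjusted p = 0.116).

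None of the other members was called in cortex. Fasn was at 212, 238 and 308 CPM under AL and at 233, 248 and 288 CPM under IF, at a log2 fold change of 0.04 ± 0.08 (adjusted p = 0.815). Srebf1 was at 63.4, 72.4 and 76.8 CPM under AL and at 59.6, 71.5 and 85.6 CPM under IF, at a log2 fold change of 0.04 ± 0.07 (adjusted p = 0.802). The IF range of Fasn lay inside its AL range and that of Srebf1 reached past it at both ends. Scd1, at 0.21 ± 0.07 (adjusted p = 0.0843), was higher than the AL median in all 8 IF libraries but was not called. Thrsp, at 0.20 ± 0.08 (adjusted p = 0.118), was also above its AL median in all 8. Me1, at -0.13 ± 0.05 (adjusted p = 0.115), was below its AL median in all 8, and Elovl6 was at -0.17 ± 0.07 (adjusted p = 0.171). Oligodendrocyte markers differed in the same libraries: 5 of 7 rose under IF, with a sum of 4582, 5571 and 7123 CPM under AL and 6298, 8348 and 10270 CPM under IF, Mbp the most abundant and none at 0. Among 6 astrocyte markers Aqp4 fell, among 5 endothelial markers Cldn5 fell, and the summed level of 8 neuronal markers had medians of 8669 CPM under AL and 8679 CPM under IF. The part of these cells in the rise of Acacb and Pnpla3 was not tested.

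In cortex of mice 25-40 none of the members was called by edgeR or DESeq2, where 0.0109% of 18403 genes were called. At an unadjusted p under 0.05 there was 1 member, Acacb, about the share of 11.2% over all genes. Acacb was at 3.57, 4.56 and 6.53 CPM under AL and at 4.00, 6.14 and 8.22 CPM under IF, with 4 IF libraries above every AL library and a log2 fold change of 0.38 ± 0.14 (adjusted p = 0.375). The difference in response between the sets was called for none of the members by edgeR or DESeq2, where 2.03% of 19547 genes were called. At an unadjusted p under 0.05 there were 5 members. The share of all genes at that threshold was not computed, so that the 5 cannot be set against it. Under AL, 2 members differed between the sets, against 12.6% of genes: Thrsp was higher in mice 25-40 by 0.43 ± 0.10 (adjusted p = 0.00543) and Elovl6 lower, at -0.22 ± 0.07 (adjusted p = 0.022). With the library labelled AL mouse 1 included, Thrsp alone was called, where 6.83% of all genes were, and Elovl6 was at -0.20 (adjusted p = 0.0542).

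Whether the tissues of the same mice responded differently was tested with mouse as a block. In mice 1-16 the liver response was below the muscle response in 7 called members, against 30.3% of 18222 genes, with a median difference of -2.77 against 0.03 over all genes. The difference was -5.04 ± 0.70 for Fasn (adjusted p = 4.1e-05), -4.18 ± 0.54 for Scd1 (adjusted p = 1.48e-05) and -2.63 ± 0.39 for Acly (adjusted p = 6.27e-05). Srebf1 was at -0.79 ± 0.30 (adjusted p = 0.0529), and it was called with RLE size factors (adjusted p = 0.0477) and by DESeq2 (adjusted p = 0.0293). The muscle side of these differences is the one that moved with the adipocyte markers above, and their part in the differences was not tested; without IF mice 9, 10 and 12, chosen after seeing the data, 7 members were called, where 25.4% of all genes were, and Fasn was at -3.90 (adjusted p = 5.59e-06). Against cortex, with mouse 1 left out, 7 members were called, all negative, against 22.9% of 20730 genes, with a median of -1.19 against 0.01 over all genes. The difference was -2.20 ± 0.25 for Fasn (adjusted p = 4.82e-06), -1.83 ± 0.21 for Acly (adjusted p = 7.63e-06) and -1.17 ± 0.27 for Srebf1 (adjusted p = 0.00352). In these livers 3 of 5 erythrocyte markers rose under IF, and in these cortex libraries 5 of 7 oligodendrocyte markers rose. Their part in the differences was not tested. In mice 25-40 neither difference was called for any member by edgeR or DESeq2, where edgeR called 0% of 18311 and 0% of 20506 genes. In each, 3 members had an unadjusted p under 0.05, and the share of all genes at that threshold was not computed.

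**Figure D3:**
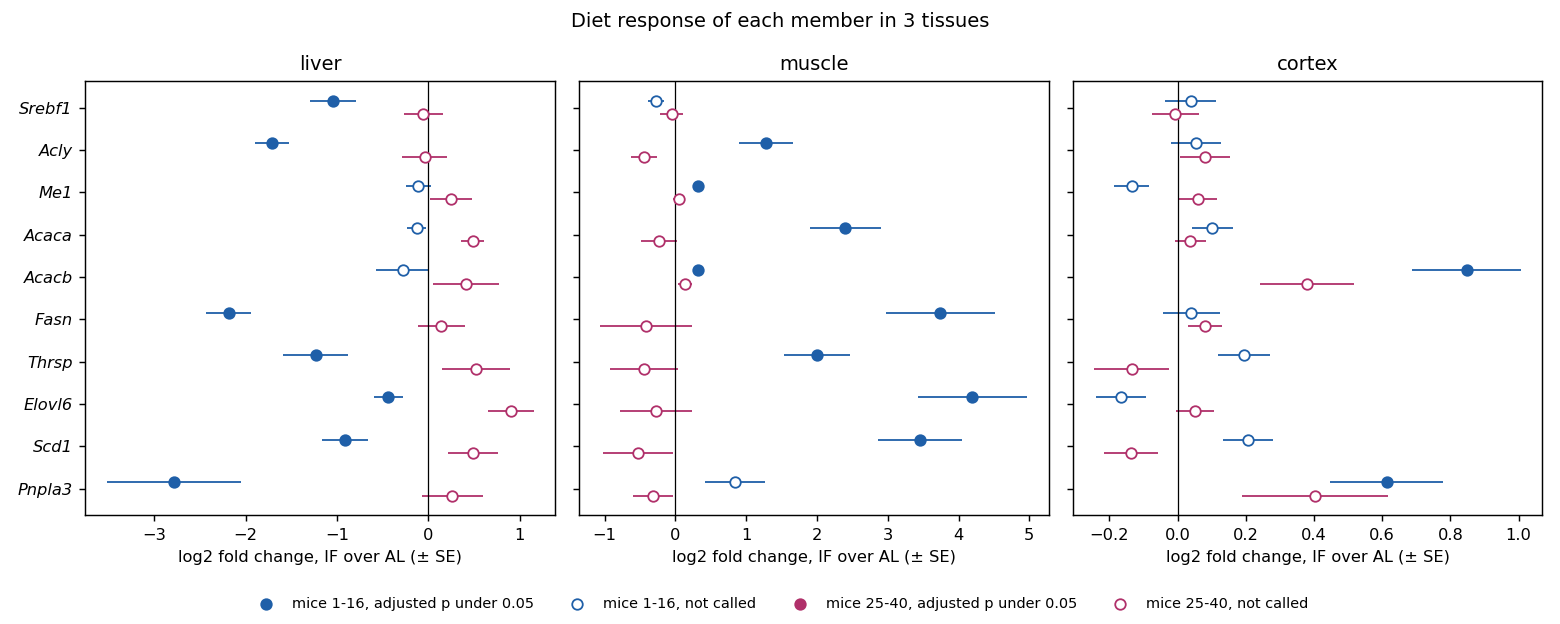
Log2 fold change of IF over AL with its standard error for each of the 10 members in liver, muscle and cortex, for mice 1-16 and mice 25-40; filled points have an adjusted p under 0.05. In mice 1-16 the called points are negative in liver, with 7, and positive in muscle, with 8, and in cortex, with 2.

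Across mice of 1 diet and set, Srebf1 was set against each other member in liver, 36 relations in all, of which 5 passed an adjusted p of 0.05 by Pearson's r and 4 by Spearman's rho. Genes other than the members were not tested in this way. All 5 were in AL mice 25-40, the group that held the lowest and the highest Srebf1 level of that set. For Fasn r was 0.980 (exact permutation p = 4.96e-05, adjusted 0.00179), rho 0.976 (exact p = 0.000397, adjusted 0.00476) and r 0.957 without the 2 libraries farthest from the median of Srebf1. For Acly r was 0.930 (exact p = 0.000124, adjusted 0.00223), rho 0.976 (exact p = 0.000397, adjusted 0.00476) and r 0.892 without the 2 farthest. Thrsp gave r = 0.926 (exact p = 0.000496, adjusted 0.00595), rho 0.952 (exact p = 0.00114, adjusted 0.0103) and r 0.937 without the 2 farthest, and Elovl6 gave r = 0.908 (exact p = 0.000868, adjusted 0.00781), rho 0.976 (exact p = 0.000397, adjusted 0.00476) and r 0.901. For Pnpla3 r was 0.879 (exact p = 0.00657, adjusted 0.0473), but rho was 0.762 (exact p = 0.0368, adjusted 0.165) and r 0.440 without the 2 farthest, so that it rested on those libraries. In AL mice 1-16 r for Fasn was 0.729 (exact p = 0.0423, adjusted 0.169), rho 0.833 (exact p = 0.0154, adjusted 0.0923) and r 0.329 without the 2 farthest. All 9 r were positive in each AL group. In IF mice 1-16 2 of 9 were positive (median -0.503), and in IF mice 25-40 4 of 9 were (median -0.113). The lowest was Elovl6 in IF mice 1-16, with r -0.831 (exact p = 0.0169, adjusted 0.0962), rho -0.643 (exact p = 0.0962, adjusted 0.289) and r -0.585 without the 2 farthest. In both IF groups none passed: r for Fasn was -0.503 in mice 1-16 (exact p = 0.207, adjusted 0.392; rho -0.286, exact p = 0.501, adjusted 0.769; r 0.200 without the 2 farthest) and 0.137 in mice 25-40 (exact p = 0.739, adjusted 0.806; rho 0.0714, exact p = 0.882, adjusted 0.907; r -0.167 without the 2 farthest).

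As a description, the genes most like Fasn over the 32 liver libraries, by the correlation of log2 CPM after each group's mean was taken away, among 13422 genes, were Acly (r = 0.886), Thrsp (0.807), Insig1 (0.791), Hmgcs1 (0.765), Acss2 (0.759) and Lss (0.753). Among those most like Srebf1 were Whamm (0.811), Shroom1 (0.796), Rmnd5b (0.793), Tbp (0.759) and Ppard (0.747). Srebf1 and Fasn had r = 0.608 with each other, which ranked 47 among the genes for Fasn and 196 among those for Srebf1.

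Lists of pathway genes, which include the members, went in both directions in liver of mice 1-16, in a comparison in which 44.6% of all genes were called, 23.5% higher and 21.1% lower. Of 15 regulators of lipogenic transcription, Srebf1 among them, 2 rose and 6 fell. Srebf2, the sterol counterpart of Srebf1, fell by 0.79 ± 0.11 on the log2 scale (median 45.6 CPM under AL and 30.3 CPM under IF, adjusted p = 4.76e-06). The genes of the proteins that hold SREBPs in the endoplasmic reticulum also fell, Insig1 by 1.32 ± 0.15 (191 and 91.0 CPM, adjusted p = 1.97e-07) and Insig2 by 0.96 ± 0.18 (149 and 85.4 CPM). Mlxipl, the gene of the glucose-responsive factor ChREBP, was at medians of 1169 and 1218 CPM (log2 fold change -0.14, adjusted p = 0.501), Nr1h3 of the LXRα receptor at 132 and 152 CPM (0.20, adjusted p = 0.101) and Scap at 134 and 132 CPM (-0.04). The coactivator gene Ppargc1b rose by 0.96 ± 0.25 (3.10 and 6.51 CPM, adjusted p = 0.00302).

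Among genes that supply or build the chain in the same livers, 1 of 8 for citrate and acetyl-CoA rose and 4 fell, Acly among them. Acss2, which makes acetyl-CoA from acetate, fell by 1.65 ± 0.16 (119 and 42.0 CPM, adjusted p = 2.29e-08), while the citrate carrier Slc25a1 was at 219.5 and 220.0 CPM (-0.08). Of 12 genes for NADPH, 3 rose and 3 fell, close to the share over all genes; Pgd fell by 0.42 ± 0.12 (38.8 and 33.04 CPM, adjusted p = 0.00799) and G6pdx was at 3.59 and 3.22 CPM (0.02). Of 9 genes for carboxylation and chain building, 1 rose and 5 fell, Fasn and Thrsp among them; Mid1ip1, whose protein helps Acaca to polymerise, fell by 2.10 ± 0.17 (36.6 and 10.7 CPM, without overlap, adjusted p = 1.05e-09). Of 9 tested genes of the separate mitochondrial fatty acid synthesis, 3 rose and 2 fell; Hsd17b8 was not found under that name.

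Desaturases and elongases were also divided. Of 6 desaturation genes tested, 3 rose and 1, Scd1, fell: the polyunsaturated fatty acid desaturases Fads2 rose by 1.18 ± 0.15 (155 and 350 CPM, adjusted p = 6.05e-07) and Fads1 by 0.48 ± 0.15 (167 and 247 CPM, adjusted p = 0.0117), and Scd2 rose by 0.72 ± 0.22 (2.55 and 4.74 CPM, adjusted p = 0.00894). Of 12 elongation genes tested, 2 rose and 6 fell, Elovl6 among them, with Elovl5 down by 1.61 ± 0.16 (308 and 111 CPM, adjusted p = 1.36e-08) and Elovl3 by 2.08 ± 0.16 (398 and 105 CPM, adjusted p = 6.46e-10). Elovl3 was at medians of 1.42 CPM under AL and 1.53 CPM under IF in liver of mice 25-40. Of 16 triglyceride synthesis genes tested, 8 rose and 4 fell, Pnpla3 among them; the phosphatidate phosphatase gene Lpin1 rose by 3.23 ± 0.47 (15.4 and 137 CPM, adjusted p = 5.42e-05) and Dgat2 by 0.55 ± 0.10 (319 and 519 CPM, adjusted p = 7.36e-05), and the acyltransferase gene Gpam fell by 0.45 ± 0.13 (140 and 107 CPM, adjusted p = 0.00771).

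In muscle of mice 1-16, where 23.0% of all genes were called, none of the 15 regulators rose and 5 fell, Srebf2 by 0.67 ± 0.08 (adjusted p = 3.48e-06) and Mlxipl by 0.20 ± 0.06 (adjusted p = 0.0241) among them. Genes of chain building rose in 7 of 9, of which 4 are the members Fasn, Thrsp, Acaca and Acacb, and fell in none, and those for NADPH rose in 5 of 12, Me1 among them, and fell in none. Slc25a1 rose by 2.96 ± 0.59 (adjusted p = 0.00247), Mid1ip1 by 0.87 ± 0.13 (adjusted p = 9.77e-05) and G6pdx by 1.04 ± 0.35 (adjusted p = 0.0427). For citrate and acetyl-CoA 3 of 8 rose, with Acly, and 1 fell, for elongation 4 of 10 rose, with Elovl6, and 2 fell, and for desaturation 2 of 6 rose, with Scd1, and 3 fell, Scd2 by 0.53 ± 0.12 (adjusted p = 0.00237) and Fads2 by 0.63 ± 0.17 (adjusted p = 0.0112) among them. For triglyceride synthesis 8 of 15 rose and 1 fell, and for mitochondrial synthesis 1 of 9 rose and 1 fell. In the same muscles 3 of 8 fibre markers fell, Ckm, Mylpf and Mb, with summed medians of 161900 CPM under AL and 157200 CPM under IF, and 9 of 10 adipocyte markers rose, as given above. Of the hepatocyte list 1 of 2 tested rose, Cyp2e1 at 4.02 ± 0.50 (adjusted p = 7.05e-05). The summed level of that list had medians of 4.85 CPM under AL and 85.7 CPM under IF, without overlap. Cyp2e1 was the most abundant of the list, with means of 5.54 and 95.4 CPM, while Alb reached 0.994 and 2.40 CPM at the highest. Of the astrocyte list 3 of 4 rose, and 1 of 5 endothelial markers (Kdr) and 1 of 4 macrophage markers (Csf1r) fell. The part of these cells in the list counts was not tested. In cortex of mice 1-16, where 7.21% of all genes were called, 6 calls were made over the 8 lists: Mbtps1 of the regulators, Acacb, Fads6, and Gpat4 and Pnpla3 of triglyceride synthesis rose, and Idh1 fell.

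The members lie at separate places of the genome, with 4 of the 10 on chromosome 11. In GRCm39 coordinates of the count table these are Fasn (ENSMUSG00000025153) at chr11:120696672-120715373, Acaca (ENSMUSG00000020532) at chr11:84020498-84292477, Acly (ENSMUSG00000020917) at chr11:100367179-100418826 and Srebf1 (ENSMUSG00000020538) at chr11:60089915-60113407. The Srebf1 span overlaps Rai1 on the other strand, which had a mean of up to 42.0 CPM in a group, and how reads shared by both genes were counted is not stated. Scd1 (ENSMUSG00000037071) lies at chr19:44382894-44396318, Elovl6 (ENSMUSG00000041220) at chr3:129326004-129432144, Me1 (ENSMUSG00000032418) at chr9:86463424-86578006, Thrsp (ENSMUSG00000035686) at chr7:97062145-97066937, Acacb (ENSMUSG00000042010) at chr5:114284596-114388822 and Pnpla3 (ENSMUSG00000041653) at chr15:84052038-84071437.

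The promoters of the members were read from RefSeq (GRCm38.p6), where 9 of the 10 had an entry, 12 entries in all, and Scd1 had none. The only entry of Acaca lies inside the span of the gene, as do further entries of Me1 and Srebf1. For Acaca the bases before the start of the whole gene were thus not read. In the 250 bases before the start, on either strand, CCAAT was found in 7 of these 12 entries, which belong to 6 members, and in 33.8% of 32851 promoter entries of the same length, and the GC box GGGCGG in 5 entries, of 4 members, and in 32.7%. The sterol response letters TCACNCCAC were in none of the 12 and in 1.05% of all, and the E-box CACGTG in none and in 6.02%. A match is a description of letters, and the absence of one says only that these letters are not in this window. The promoters of Fasn and Thrsp are shown because each holds more than 1 CCAAT, in capitals on either strand (ATTGG on the other strand), ending 85, 57 and 54 bases before the start in Fasn (chr11:120824548-120824797, minus strand) and 74 and 47 bases before it in Thrsp (chr7:97417551-97417800, minus strand).
Fasn: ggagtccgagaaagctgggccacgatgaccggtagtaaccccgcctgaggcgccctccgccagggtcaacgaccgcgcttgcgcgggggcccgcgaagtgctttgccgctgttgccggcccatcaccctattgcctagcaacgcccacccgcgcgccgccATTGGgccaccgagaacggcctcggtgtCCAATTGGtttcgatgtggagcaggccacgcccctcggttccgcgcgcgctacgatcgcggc
Thrsp: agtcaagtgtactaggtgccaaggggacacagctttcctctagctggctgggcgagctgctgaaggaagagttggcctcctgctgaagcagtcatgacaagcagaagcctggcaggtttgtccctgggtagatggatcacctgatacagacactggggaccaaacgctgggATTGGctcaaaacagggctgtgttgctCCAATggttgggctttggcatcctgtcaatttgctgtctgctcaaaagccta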

How the data were processed

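RNA from liver, muscle and cortex was sequenced by the authors as poly-A directional libraries. Reads were aligned with HISAT2 to mm39 and assigned to genes with featureCounts. The deposited table holds raw counts for every gene and library. The deposited table also gives a gene length in bases, which the authors took from their annotation, and this served only for CPM per kilobase. How the strand was set in counting is not stated.

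CPM was computed from raw counts over each library's total (26097314 to 49838004 counts), with a pseudocount of 0.1 CPM before logs. Diet was fitted in each tissue and mouse set with edgeR 4.0.16 (TMM, expression filter of minimum count 10 and total 15, robust quasi-likelihood test) under R 4.3.3, with p adjusted by Benjamini-Hochberg over all genes tested and a threshold of 0.05. Interactions were fitted in the same way. DESeq2 1.42.0, RLE size factors, no filter, the labels' replicate number as a block, unadjusted p, left-out mice and marker covariates were tried as alternatives. Levels between tissues and correlations were tested by exact permutation with scipy 1.17.1, numpy 2.4.6 and pandas 2.3.3 on Python 3.11.15, and figures were drawn with matplotlib 3.10.9. The scripts were tested on simulated data.

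The named genes were all 10 members, a fixed set of 20 pathway genes and genes among those most like Fasn and Srebf1 in liver. The members and lists were chosen with earlier results of these data known. The cortex library labelled AL mouse 1 was left out because it went against its label.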

Additional observations from a re-analysis of the deposited data

Results flagged for a closer look

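Each member was looked at in 120 groups of libraries (10 members in 12 groups of tissue, mouse set and diet) for a library that stood apart, meaning that its gap to the nearest other library was large against the range of the group. There were 13 such cases, from 5 libraries and all at the high end. By the threshold used, chance gives about 1 in 20 groups if the values are normally distributed. The rule was applied to raw CPM, for which this was not tested, so that the 13 cannot be set against that rate. Cases from the same library are also not independent.

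In muscle of IF mice 1-16, mouse 12 stood apart for 5 members: Scd1 at 3120 CPM, where the other 7 reached 1290 CPM, Thrsp at 309 CPM (others up to 139 CPM), Acaca at 175 CPM (up to 82.5 CPM), Acacb at 402 CPM (up to 314 CPM) and Pnpla3 at 15.9 CPM (up to 8.35 CPM). This library also held the most Adipoq of its group, and the part of adipocytes was not tested. In muscle of AL mice 1-16, mouse 2 stood apart for Fasn at 78.0 CPM (others up to 37.99 CPM), Acaca at 16.8 CPM (up to 11.3 CPM) and Thrsp at 49.1 CPM (up to 25.2 CPM). In cortex of AL mice 25-40, mouse 26 stood apart for Fasn at 282 CPM (others up to 249 CPM), Acly at 129 CPM (up to 104 CPM) and Pnpla3 at 5.41 CPM (up to 3.53 CPM). The remaining cases were Srebf1 at 89.6 CPM in cortex of IF mouse 36 (others up to 74.6 CPM) and Pnpla3 at 11 CPM in liver of IF mouse 33 (others up to 5.59 CPM).

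The response to IF differed between groups by a test of the difference itself in 28 cases. Of all genes, 23.7% were called between the mouse sets in liver and 14.2% in muscle. In mice 1-16, 30.3% were called between liver and muscle and 22.9% between liver and cortex. Between the mouse sets (mice 25-40 minus mice 1-16) in liver, the log2 difference was 2.36 for Fasn, 1.71 for Acly, 1.38 for Elovl6, 3.10 for Pnpla3, 0.65 for Acaca, 1.43 for Scd1, 1.79 for Thrsp and 1.03 for Srebf1. In muscle it was -3.96 for Scd1, -4.14 for Fasn, -2.43 for Thrsp, -1.71 for Acly, -4.44 for Elovl6 and -2.61 for Acaca. Sex cannot be told apart from anything else that may differ between the mouse sets.

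Between liver and muscle of mice 1-16 (liver minus muscle) the log2 difference was -4.18 for Scd1, -5.04 for Fasn, -2.90 for Thrsp, -2.63 for Acly, -3.77 for Elovl6, -2.08 for Acaca and -3.45 for Pnpla3. Between liver and cortex of the same mice it was -1.21 for Scd1, -2.20 for Fasn, -1.17 for Srebf1, -1.67 for Thrsp, -1.02 for Acacb, -1.83 for Acly and -3.76 for Pnpla3. These comparisons share the liver libraries, and in muscle the members also varied with adipocyte markers, whose part was not tested. Erythrocyte markers rose in the same livers and oligodendrocyte markers in the same cortex libraries, and their part was not tested either.

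Outside the comparisons, the cortex library labelled AL mouse 1, a male, held 213 CPM of Xist, a transcript near 0 in the other libraries labelled male.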

How the results depend on the processing

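Over the 10 members and the comparisons, 679 alternative values of single log2 fold changes were computed; 628 kept their direction and their side of the threshold, 26 kept the direction and lost the call, 7 gained a call and 18 changed sign, 16 of them called under neither setting. Unless stated, the cause was not tested.

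With RLE size factors, no filter or DESeq2, the log2 difference of Acaca between the sets under AL in liver was -0.02 in each, from a value near 0. Without a filter 1 member (Srebf1) was called between the sets under AL in muscle, where 17.3% of all genes were. At an unadjusted p under 0.05, a looser threshold by construction, 2 members were called in liver of mice 25-40 (5.77% of all genes), 1 in muscle (10.7%) and 1 in cortex (11.2%) of the same mice, and 6 in cortex of mice 1-16 (23.8%). With the library labelled AL mouse 1 included, 1 member was called by diet in cortex of mice 1-16 (1.6% of all genes) and 1 between the sets under AL (6.83%). Without AL mouse 2 and IF mouse 10, 1 was called by diet in cortex of mice 1-16, where 2.69% of all genes were, and Fasn there was at -0.0019. Acly in muscle was then at 1.20 (adjusted p = 0.0575).

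With the replicate number as a block, 1 member was called in cortex of mice 1-16, where 2.07% of all genes were. Acly and Srebf1 were then at 0.07 and 0.04 in liver of mice 25-40. In muscle of mice 1-16 Acly was at 1.0 (adjusted p = 0.0552), and Srebf1 was called at -0.28 (adjusted p = 0.0432). The numbers do not pair animals: of the pairs with a shared number, residuals correlated above 0.1 in 1 of 8 and 2 of 8 in liver, 3 of 8 and 4 of 8 in muscle, and 1 of 7 and 4 of 8 in cortex.

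With the erythrocyte covariate 2 members were called in liver of mice 1-16 and Acacb was at 0.32. With the adipocyte covariate 3 were called in muscle of mice 1-16, where Acly was at -0.15 and Pnpla3 at -0.84. In muscle of mice 25-40 that fit gave Fasn at 0.24, Acaca at 0.03, Elovl6 at 0.17, Srebf1 at 0.05, Thrsp at 0.06 and Pnpla3 at 0.02. Chosen after seeing the data, the same covariate gave 2 called differences between the sets in muscle, with Thrsp at 0.03 and Pnpla3 at 0.79. Leaving out IF mice 9, 10 and 12, also chosen after seeing the data, gave 3, and put Pnpla3 at -0.03 in muscle of mice 1-16. Tests of level between tissues passed in 49 cases with log2(CPM + 1) and in 54 with TMM-scaled libraries, and with the latter 4 Srebf1 correlations and 25 adipocyte correlations passed.

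Limits: bulk RNA does not separate cell types, isoforms or transcription from RNA decay. Sex cannot be told apart from other differences between the mouse sets, nor the schedule from the last fast or from feeding in the light. Pnpla3 in liver of mice 1-16 rests on 0 to 69 counts per library. With 8 mice per group, a p that misses the threshold does not show equal levels. A covariate made from markers that themselves differ by diet also takes away diet.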
